A study of Mus musculus with 3 samples.

Results

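The m5C sites listed in the mouse metaphase II (MII) oocyte alone were 5870 positions in 3599 genes, out of 20694 positions listed in the MII oocyte (28.4%) and 40298 distinct positions over the 3 stages of the series. The sites were selected on being called in the MII oocyte at a given chromosome, coordinate and strand. They had no entry there for the germinal vesicle (GV) oocyte or the 1-cell embryo. Listing is decided by the measured level, coverage and number of unconverted reads, and by further filters of the authors. The other 14824 MII oocyte sites, called shared sites here, comprised 6809 also listed in the GV oocyte, 1870 also listed in the 1-cell embryo and 6145 listed at every stage. Presence in 1 list and absence from the others chose the MII-alone sites, so their number, levels and coverage are a description and carry no test.

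In RNA bisulfite sequencing, unmethylated cytosine is converted and read as T, whereas 5-methylcytosine (m5C) is read as C, and the share of unconverted reads is the m5C level. All RNA came from wild-type C57BL/6J mice, with 1 library of about 200 oocytes or embryos per stage from females labelled 7 to 8 weeks old. GV oocytes were collected 48 h after 10 IU of PMSG. MII oocytes were collected 12 h after 5 IU of hCG in females primed with 10 IU of PMSG, and 1-cell embryos 24 h after 5 IU of hCG in mated females primed with 5 IU of PMSG. The reads at listed sites summed to 4475058, 5285011 and 2616279 in order of development, over 15910, 20694 and 24996 sites with median coverages of 121, 107 and 58 reads. No stage had a replicate, and the labels describe the conversion of oocytes and embryos differently, so stage and library cannot be told apart and no difference between stages was tested. Intervals below are 95% Wilson intervals for shares and order-statistic intervals for medians, and cover counting error only, since reads were not tied to single molecules.

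The MII oocyte has completed the first meiotic division and is arrested until fertilization, with transcription silent, so its mRNA was made earlier and is regulated by storage, translation and decay. In mRNA, the methyltransferase NSUN2 is known for Type I sites, which are followed by a G-rich stretch, and NSUN6 for Type II sites, which are followed by UCCA or a close variant. A Type II site was one where the bases from the site on read CUCNA, and every other site was counted as Type I.

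The following 29-nt windows show both classes, with the site in the centre and the strand of the mRNA read 5′ to 3′ from the GRCm38 genome (T stands for U). Capitals mark the listed C and the 4 bases after it. The first 4 windows are Type II sites that carry the CTCCA form of the motif, and the next 3 are Type I sites with the highest levels at 100 reads or more whose window lies in a single exon.
Rps6kb2, chr19:4159276-4159304, minus strand: tagccctgggccatCTCCAttcccacggc
Utp4, chr8:106918657-106918685, plus strand: agtggagccgctctCTCCAgaagcaagga
Map4k4, chr1:40009751-40009779, plus strand: acagactactcatcCTCCAgtgaggagtc
Oas1e, chr5:120786799-120786827, minus strand: gatggtgctcatgtCTCCAgcgaggggta
Gpcpd1, chr2:132578117-132578145, minus strand: taagggagcgctggCGAGGcgctgacgct
Xrcc2, chr5:25692431-25692459, minus strand: agagtgtggccctgCAGGAgtcaacgctg
Kalrn, chr16:34256247-34256275, minus strand: agcagttccagcagCAGCAgaccgccacc

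The next 4 windows are the Type I sites that stood furthest above the level allowed by their absence from the GV oocyte list (of 5 such sites, the 4 whose window lies in a single exon), and Amh is shown because it marks follicle cells.
Rpusd4, chr9:35267934-35267962, plus strand: tatgagttcgcgtcCCGGGagattgttca
Rcsd1, chr1:165655917-165655945, minus strand: ctgtggagccatctCAGGAaaacggtgcc
Nsun3, chr16:62735344-62735372, minus strand: acatgcacgctttcCAAGGctgaaaatca
Ttf2, chr3:100961273-100961301, minus strand: taaaggcaggccgcCAGGAaactcctgag
Amh, chr10:80807263-80807291, plus strand: cgctgcagggcttaCGTGCcgagtggcat

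Most MII-alone sites were weakly methylated. Their median level was 13.95% (95% interval 13.8 to 14.2%), with quartiles of 11.5% and 18.5%. Shared sites had a median level of 23.9% (23.5 to 24.1%) in the same library. Levels under 15% were found at 3356 MII-alone sites (57.2%), compared with 21.6% of shared sites. The low levels resembled those of the sites listed in the MII oocyte and the 1-cell embryo but not in the GV oocyte, whose median was 12.8% (12.6 to 12.9%), whereas sites listed in both oocytes only had a median of 25% (24.4 to 25.4%). Levels of at least 50% were found at 58 MII-alone sites (0.988%) and at 16.2% of shared sites, and no MII-alone site was fully methylated.

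**Figure D1:**
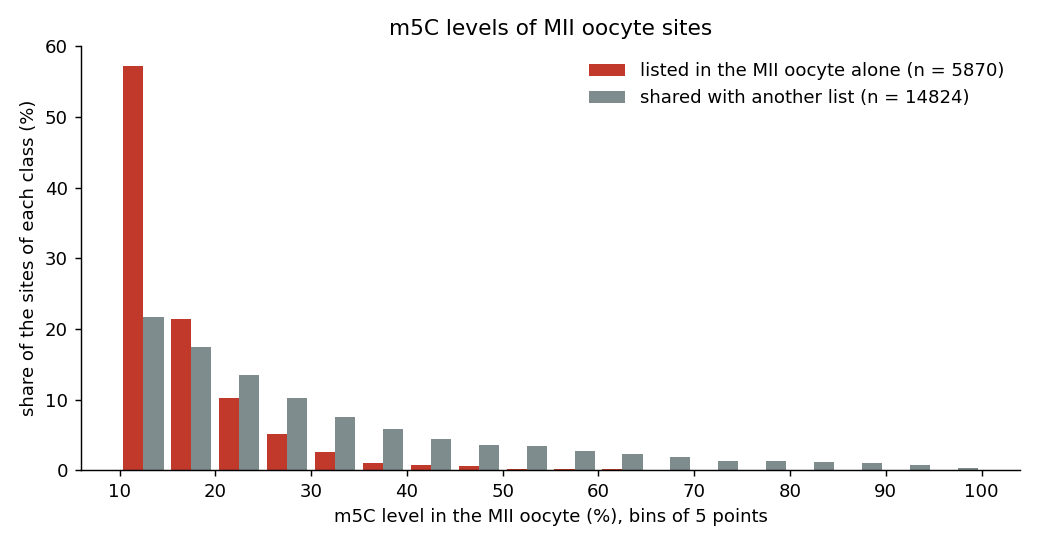
Distribution of m5C levels in the MII oocyte in bins of 5 percentage points, as the share of 5870 sites listed in the MII oocyte alone and of 14824 shared sites. The bin from 10% to 15% holds 57.2% of the former and 21.6% of the latter, and above 50% nearly all bars are those of shared sites.

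MII-alone sites were also thinly covered. Their median coverage was 62 reads (60 to 65), compared with 137 reads (133 to 140) at shared sites, and the highest was 3108 reads. Sites listed in both oocytes only were nearly as thinly covered, with a median of 73 reads (71 to 75) and 31.0% under 50 reads. Shared sites with a 1-cell embryo entry had medians of 229.5 reads (absent from the GV oocyte list) and 242 reads (every stage). MII-alone sites held 690469 of the 5285011 reads summed over the MII oocyte list. Coverage under 50 reads was found at 38.9% of MII-alone sites and at 16.6% of shared sites. The median number of unconverted reads was 9 at MII-alone sites and 33 at shared sites, and 50.4% of MII-alone sites had fewer than 10 unconverted reads, compared with 10.5% of shared sites. A typical site listed in the MII oocyte alone thus rested on few reads.

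The share of MII oocyte sites that were listed there alone was lower at higher coverage and at higher level. It was 48.1% (46.7 to 49.6%) at 20 to 49 reads, 34.7% (33.4 to 36.0%) at 50 to 99 reads, 22.7% (21.5 to 23.9%) at 100 to 199 reads and 12.4% (11.6 to 13.3%) at 200 reads or more. By level, it was 51.2% (49.9 to 52.4%) from 10% to 15% and 5.94% (5.36 to 6.57%) at 30% or more. Both gradients ran across the overall share of 28.4%.

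**Figure D2:**
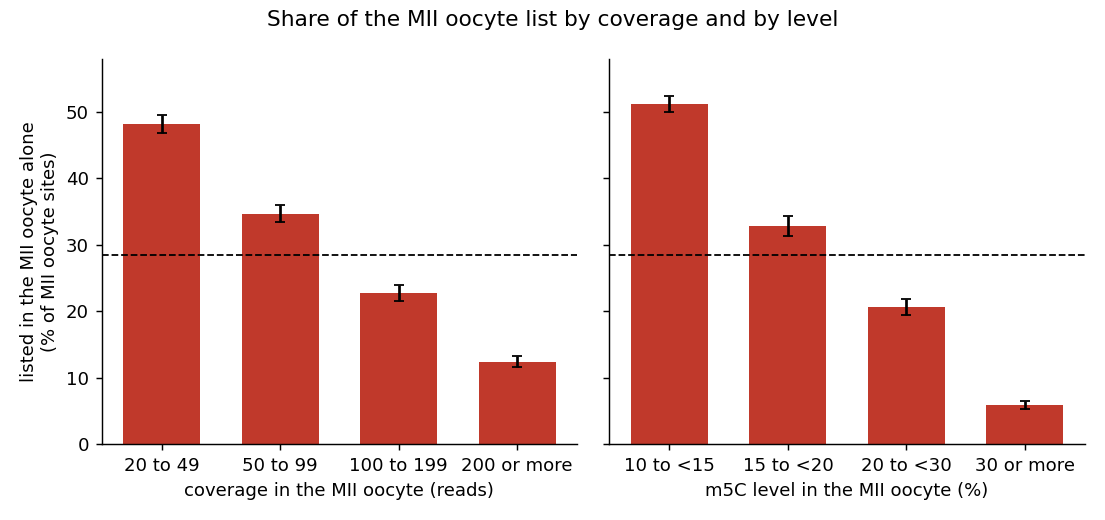
Share of MII oocyte sites listed in that stage alone, by coverage in reads (left) and by m5C level in percent (right), with 95% Wilson intervals as error bars and a dashed line at the overall share of 28.4%. The share falls from 48.1% to 12.4% with coverage and from 51.2% to 5.94% with level.

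The limits of the lists, which are 20 reads, a level of 10% and 5 unconverted reads, cut through the MII-alone sites. Just inside them, 577 sites had levels from 10% to under 10.5%, 917 sites (15.6%, compared with 1.78% of shared sites) had exactly 5 unconverted reads, and 77 sites had exactly 20 reads. Just outside, among sites that entered the GV oocyte list by a small margin, 417 shared by both oocytes had GV oocyte levels from 10% to under 10.5% and a median MII oocyte level of 14.5%. Another 214 had exactly 5 unconverted reads in the GV oocyte and a median MII oocyte level of 21.3%. A site that a list leaves out has no value at that stage. Lack of methylation, a level below the limits, lack of reads and removal by another filter of the lists look the same.

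Highly methylated MII-alone sites with good coverage were rare. Of 1803 MII-alone sites with 100 reads or more, 62 had a level of at least 20% and 3 a level of at least 30%, compared with 2996 of 9006 shared sites (33.3%) at 30% or more. The highest level belonged to a Type II site in exon 7 of 15 of Rps6kb2, which encodes a ribosomal protein S6 kinase. It had 82 unconverted reads of 139, a level of 59.0% (50.7 to 66.8%), and is the first base of a CUC codon. Rps6kb2 had 2 more sites in the MII oocyte, with levels of 15% and 10.4% at 40 and 48 reads, and none at the other stages. The next highest MII-alone site with 100 reads or more was at 30.6%, below the interval of the Rps6kb2 site.

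The next 9 sites at 100 reads or more were Type I, with levels from 26.2% to 30.6%. In the 5′ UTR of Gpcpd1, a glycerophosphocholine phosphodiesterase, 30.6% (22.8 to 39.7%) of 111 reads were unconverted. In the CDS of Fgf8, a fibroblast growth factor, the level was 30.0% (22.2 to 39.1%) of 110 reads. In the CDS of Xrcc2, which acts in homologous recombination, it was 29.9% (22.6 to 38.4%) of 127 reads. The intervals of these 3 overlap almost entirely.

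The others lay in genes of varied function. The CDS site of Kalrn, a guanine nucleotide exchange factor, had a level of 28.7% at 157 reads. Supt16, a subunit of the histone chaperone FACT, had a CDS site at 27.6% (22.1 to 33.8%) of 221 reads, the deepest of the 10. Ppt2 and Epb41 carried 3′ UTR sites at 26.5% of 166 reads and 26.2% of 130 reads. In Tab2, an adaptor of the TAK1 kinase, and in Luc7l2, a splicing factor, the sites reached 26.4% of 125 reads and 26.2% of 107 reads. In both of these genes every MII oocyte site was listed in that stage alone, 2 in each.

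**Figure D3:**
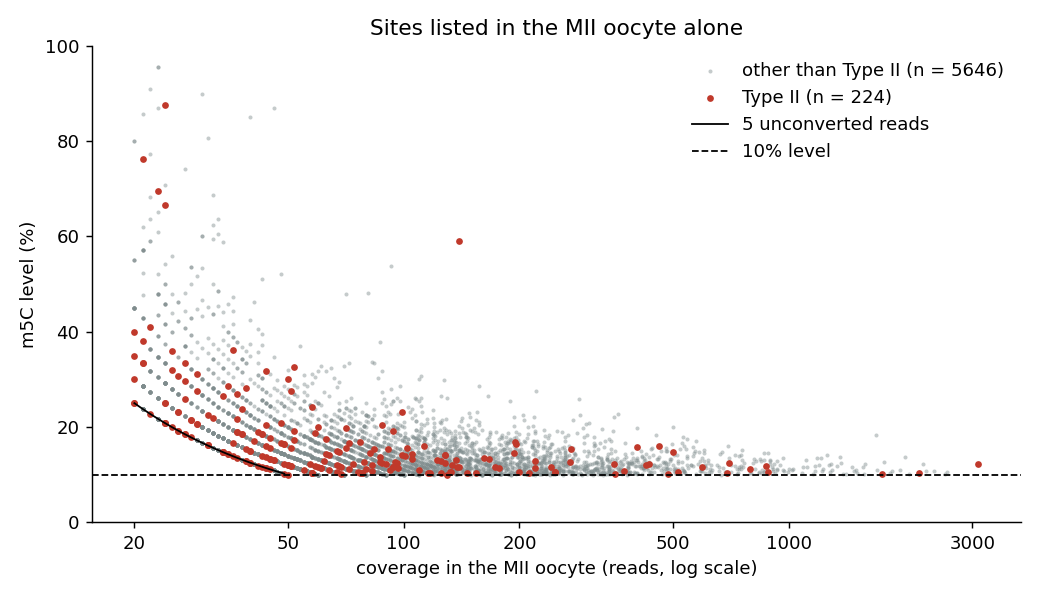
m5C level in percent against coverage in reads (log scale) for the 5870 sites listed in the MII oocyte alone, with 224 Type II sites in red, the curve of 5 unconverted reads and the dashed line of the 10% level. Points crowd along both limits, and above 100 reads the only point over 31% is the Type II site of Rps6kb2 at 59.0%.

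The deepest MII-alone sites lay close to the level limit. The 48 sites with 1000 reads or more had a median level of 11.1% and a highest level of 18.2%. The greatest coverage was in the 3′ UTR of Oas1e, of the oligoadenylate synthetase family, with 3108 reads and 12.3% (11.2 to 13.5%) at a Type II site. Oas1e has close paralogues, so the assignment of its reads is uncertain. Oser1, AU022751, Atp2a2 and Usp19 followed with 2583, 2549, 2388 and 2271 reads and levels of 10.6%, 10.0%, 10.8% and 10.7%. Each of these 5 genes was also listed at the other stages through other sites. Atp2a2 encodes the SERCA2 calcium pump and Usp19 a deubiquitinase, and both sites fell on the first base of a CAG codon.

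Conversely, the highest levels of all came with the lowest coverage. Of the 58 MII-alone sites at 50% or more, 56 had fewer than 50 reads and the median was 24 reads. These sites were chosen after their values were seen. The extreme values were 95.7% of 23 reads (79.0 to 99.2%) in the 3′ UTR of both Lin28a, an RNA-binding repressor of let-7 maturation, and Fuca1, a lysosomal fucosidase. Both genes had other sites at every stage.

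Most MII-alone sites lay in transcripts that were also listed elsewhere. The gene was also listed in both the GV oocyte and the 1-cell embryo for 3767 of them (64.2%, 62.9 to 65.4%). It was listed in the GV oocyte but not the 1-cell embryo for 965 (16.4%), and in the 1-cell embryo but not the GV oocyte for 503 (8.57%). In the MII oocyte the gene need not have had another site. The remaining 635 (10.8%, 10.0 to 11.6%) lay in 518 genes without a listed site at another stage. Of all 6736 genes of the MII oocyte list, these 518 were the only ones not listed elsewhere. Shared sites lie in genes listed elsewhere by definition, so lying in such a gene is not particular to MII-alone sites. Coverage and level moved in opposite directions between these classes. In genes listed at every stage the MII-alone sites had a median level of 13.3% at a median of 76 reads, and in genes listed in the MII oocyte alone 16.6% (15.8 to 17.2%) at 40 reads (38 to 43). In bulk samples of this kind, fewer transcripts per oocyte and less RNA recovered cannot be told apart, and either lowers the coverage on which listing depends.

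MII-alone sites were scattered over many genes. A single such site was found in 2278 genes (63.3% of the 3599), 2 in 795 genes and 3 or more in 526 genes. Within genes, 70 groups of neighbouring sites with steps of up to 10 nt held 141 MII-alone sites, and the longest group held 3. At least 1 MII-alone site was found in 53.4% of the 6736 genes of the MII oocyte list. In 1008 genes every MII oocyte site was of this kind, and 39 of these genes held 3 or more. Most MII-alone sites therefore stood apart from one another, as did MII oocyte sites in general. Another MII oocyte site lay within 10 nt of 5.72% of MII-alone sites and 7.93% of shared sites. For neighbours that were MII-alone sites themselves, the order was the other way. These lay within 10 nt of 2.40% (2.04 to 2.83%) of MII-alone sites and 1.37% (1.19 to 1.57%) of shared sites.

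In 8 of the 10 genes with most MII-alone sites, such sites were a minority of the MII oocyte sites of the gene. Their shares ran from 30% in Mn1 to 40.9% in Wnk2, against 28.4% over the whole list. The genes were picked for their number of MII-alone sites, which favours genes with many sites and high shares. Lama5, which encodes the laminin α5 chain, held 11 among its 34 MII oocyte sites, all in the CDS between exon 1 and exon 78 of 79, with levels from 10.1% to 20.0% at 59 to 248 reads. Kmt2b and Kmt2d, 2 histone H3 lysine 4 methyltransferases, held 9 of 28 and 9 of 25. Levels in Kmt2b ran from 10.4% to 20.0% at 65 to 386 reads. In Kmt2d they ran from 10.1% to 23.1% at 26 to 517 reads. Coverage thus varied widely along each transcript.

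Caskin2 (a scaffold protein), Mn1 (a transcriptional regulator) and Wnk2 (a protein kinase) held 9 of 25, 9 of 30 and 9 of 22. Caskin2 had 2 Type II sites, the only ones in these 10 genes, at 20.7% of 29 reads and 10.0% of 50 reads. Wnk2 had 2 sites at neighbouring bases of the 3′ UTR, with 12.2% and 15.9% of 82 reads each. Ints1, the largest subunit of the Integrator complex, held 8 of 20, all in the CDS, and the adenylate cyclase gene Adcy5 held 7 of 19. Adcy5 was taken in alphabetical order from 16 genes with 7 MII-alone sites.

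In 2 genes of this group the MII-alone sites outnumbered the shared ones. Zcchc14, which encodes a zinc finger protein, held 9 among 13 MII oocyte sites, with levels from 10.7% to 23.9% at 39 to 121 reads. Of these 9, 6 lay in exon 1 within the 5′ UTR. The GV oocyte list had 5 sites of this gene and the embryo 2. Nacad, a relative of the nascent polypeptide-associated complex, held 8 of 15, all in exon 2, with levels from 10.3% to 19.5% at 37 to 74 reads. The GV oocyte list had 10 sites of Nacad and the embryo 2, so both transcripts were read at every stage.

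Genes listed in the MII oocyte alone held few sites each. Acadsb, a mitochondrial acyl-CoA dehydrogenase, had 5, with levels from 12.3% to 37.0% at 27 to 57 reads. Rgs19, which accelerates GTP hydrolysis by G proteins, had 4, from 10.6% to 21.6% at 37 to 96 reads. Trub2, a mitochondrial pseudouridine synthase, had 4, from 13.8% to 27.6% at 27 to 58 reads. Upf3a, a factor of nonsense-mediated decay, had 3 CDS sites of better coverage, from 12.6% to 21.8% at 87 to 142 reads. The intervals of all 3 overlap.

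To ask whether the transcript was covered where a site was missing, the coverage of the nearest site of the same gene listed at both stages within 25 nt was used as a gauge. Such a neighbour in the GV oocyte was found for 339 MII-alone sites (5.78%). Its median coverage in the GV oocyte was 90 reads, while the MII-alone sites themselves had a median of 76 reads in the MII oocyte. Among 1251 pairs of listed sites at the same distances, the ratio of coverage ran from 0.892 to 1.13 between the 10th and 90th percentiles. For 321 of the 339 (94.7%) an unchanged level would have given at least 5 unconverted reads in the GV oocyte. The neighbour had to be listed in the GV oocyte itself, and so to have 20 reads and 5 unconverted reads there, so this count is largely fixed by the choice of gauge and says nothing of the MII-alone sites without one.

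A site not listed at a given coverage has a ceiling, the highest level that stays under 10% or under 5 unconverted reads, if no other filter of the lists removed it. The lower bound of the MII oocyte level stood above the GV oocyte ceiling at 90 of these 339 sites (26.5%, 22.1 to 31.5%). Over all 1728 MII oocyte sites with such a neighbour, MII-alone or shared, 72.2% stood above the ceiling at their own neighbour's coverage. The ceiling was taken as exact, without the counting error of the GV oocyte reads, so standing above it does not show a difference between stages. Some sites passed it narrowly, such as an Mn1 site in the 5′ UTR with a lower bound of 9.99% and a ceiling of 9.90%. At the other MII-alone sites with a gauge, the lower bound did not exceed the ceiling.

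In the 1-cell embryo, where reads were fewer, 127 MII-alone sites had a gauge, with a median of 37 reads against 141 reads at the sites themselves in the MII oocyte. An unchanged level would have given at least 5 unconverted reads at 65 of them (51.2%). The lower bound stood above the 1-cell embryo ceiling at 31 (24.4%, 17.8 to 32.6%), compared with 75% of all 1050 MII oocyte sites with such a neighbour. A gauge at both stages was found for 97 MII-alone sites, 16 of which stood above both ceilings, and 5501 had no gauge at either stage. For most MII-alone sites, therefore, the lists give no estimate of coverage at the other stages.

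The sites furthest above the GV oocyte ceiling were all Type I sites in the CDS. In exon 1 of Rpusd4, a mitochondrial pseudouridine synthase, 48.1% (37.6 to 58.9%) of 81 reads were unconverted. The base beside it was listed in both oocytes and had 107 reads in the GV oocyte, which gives a ceiling of 9.35%. The gap from the ceiling to the lower bound was 28.3 percentage points. In Rcsd1, which encodes an actin-capping protein partner, the level was 44.4% (29.5 to 60.4%) of 36 reads, with a gauge of 84 reads in the GV oocyte and 22 reads in the 1-cell embryo.

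Nsun3, a mitochondrial tRNA m5C methyltransferase, carried a CDS site at 31.8% (23.0 to 42.1%) of 88 reads, with a gauge of 51 reads in the GV oocyte. Ttf2, a transcription termination factor, had 33.3% (21 to 48.4%) of 42 reads and a gauge of 45 reads. The deepest of these 5 was in the CDS of Iqgap3, a cytoskeletal scaffold, with 26.0% (21.2 to 31.4%) of 285 reads and a gauge of 369 reads. Gaps in Nsun3, Ttf2 and Iqgap3 were 13.2, 12.1 and 11.5 percentage points. In 3 of the 5, Rpusd4, Nsun3 and Ttf2, the gauge was the adjacent base.

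Type II sites made up a smaller share of MII-alone sites than of shared sites, with intervals that did not overlap. They were 224 of 5870 (3.82%, 3.36 to 4.34%), compared with 817 of 14824 (5.51%, 5.16 to 5.89%), and with 1.61% of all C in the transcripts. The sequence was not used to choose the sites, but the values are from 1 library and the difference was not tested. The share was 6.32% (5.76 to 6.92%) at sites listed in both oocytes only, 5.45% (4.91 to 6.05%) at every stage, and 2.78% (2.13 to 3.63%) in the MII oocyte and 1-cell embryo only. Sites absent from the GV oocyte list, with or without a 1-cell embryo entry, thus had the lowest shares.

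The lower Type II share held at matched coverage up to 199 reads. At 20 to 49 reads it was 4.29% (3.53 to 5.20%) of MII-alone sites and 7.15% (6.20 to 8.23%) of shared sites. At 50 to 99 reads it was 3.76% and 5.96%, and at 100 to 199 reads 3.14% and 5.36%, again with intervals that did not overlap. At 200 reads or more the values were 3.44% (2.37 to 4.96%) and 4.61% (4.08 to 5.19%), and the intervals overlapped. At matched level the share was lower in each of 4 classes, but the intervals were apart in 1 of them, from 10% to 15% (3.72% and 5.34%). They overlapped from 15% to 20% (3.58% and 4.54%), from 20% to 30% (3.64% and 5.26%) and at 30% or more (6.00%, 3.96 to 9.0%, and 6.22%, 5.62 to 6.89%).

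**Figure D4:**
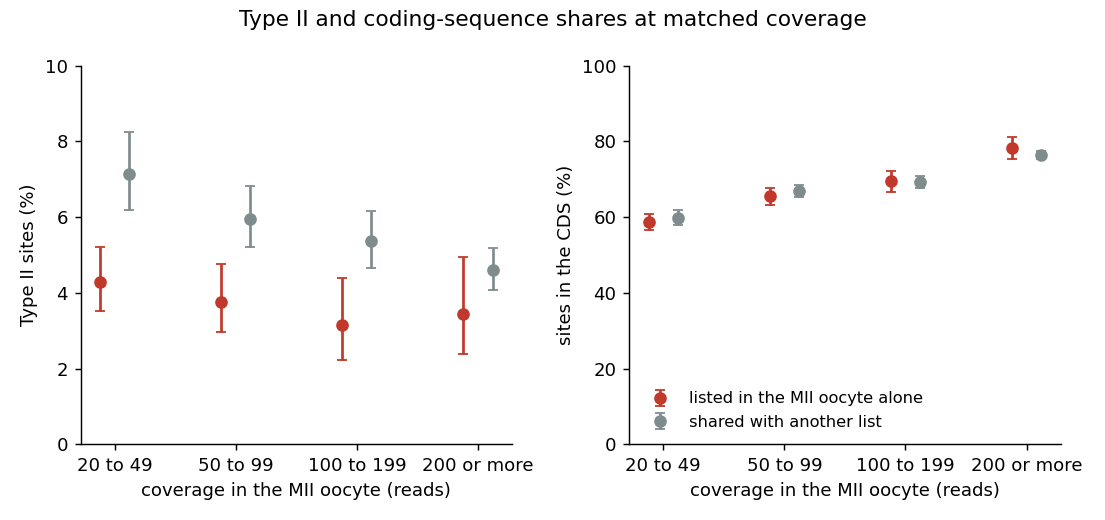
Share of Type II sites (left) and of sites in the CDS (right), in percent, by coverage in the MII oocyte in reads, with 95% Wilson intervals. Type II shares of sites listed in the MII oocyte alone lie below those of shared sites, from 4.29% against 7.15% at 20 to 49 reads to 3.44% against 4.61% at 200 reads or more, while the CDS shares overlap in every coverage class.

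After Rps6kb2, the Type II MII-alone sites at 100 reads or more were weakly methylated. Utp4, a factor of ribosomal RNA processing, had 16.9% (12.3 to 22.8%) of 195 reads in exon 15. Map4k4, a protein kinase, had 16.3% (11.8 to 22.1%) of 196 reads in exon 21. The single-exon gene Gm10053 had 16.1% of 460 reads, and since such a gene can be a copy of a spliced one, the origin of its reads is uncertain. Sufu, an inhibitor of Hedgehog signalling, had 15.9% (10.3 to 23.8%) of 113 reads in the 3′ UTR. The intervals of these 4 overlap, and that of Rps6kb2 lies above all of them.

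The sequence after Type I MII-alone sites was G-rich, much like that of shared sites. The mean number of G among the 4 following bases was 2.17 (SD 0.867, n = 5645 sites), compared with 2.23 (SD 0.856, n = 14000) at shared sites and 0.928 over all C of the transcripts. G stood at the second following base in 67.5% (66.3 to 68.8%) and 68.7% (67.9 to 69.5%). The most frequent following bases were AGGG at 462 sites (8.18%), AGGA at 387 (6.86%) and GGGG at 294 (5.21%), which were also the first 3 among shared sites at 8.78%, 7.50% and 5.79%. Levels of MII-alone sites differed little with G content, with a median of 13.8% without any G and 14.5% with 4, whereas those of shared sites rose with each G, from 21.1% to 26.4%. Levels of MII-alone sites crowded at the 10% limit of the lists. At levels of 30% or more the mean number of G was 2.34 at MII-alone sites and 2.29 at shared sites.

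Predicted structure around MII-alone sites differed little from that around shared sites. In windows centred on the site and folded at 37 °C, the site itself was paired in 58.8% of 5729 windows and in 58.4% (57.6 to 59.2%) of windows of shared sites. Pairing was lowest 2 bases upstream, at 48.0% and 47.3%, and was 74.1% and 73.7% at 3 bases downstream. The intervals overlapped at all 3 positions. The median folding energy was −29.9 kcal/mol, against −30.4 kcal/mol.

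By transcript region, 3832 MII-alone sites lay in the CDS (65.3%, 64.1 to 66.5%), 723 in the 5′ UTR (12.3%, 11.5 to 13.2%), 1154 in the 3′ UTR (19.7%, 18.7 to 20.7%) and 144 in other exons. Shared sites had 69.9% (69.2 to 70.6%) in the CDS, 10.9% in the 5′ UTR and 17.4% in the 3′ UTR. Over all C of the transcripts the shares were 57.3%, 7.30% and 34.1%. MII-alone sites were thus fewer in the CDS than shared sites. In both sets the 3′ UTR share was below that of C as a whole, but the labels were made by unlike rules. A site took the CDS label if any transcript of its gene placed it there. All C were counted on the transcript with the longest CDS, without a coverage limit, so the distance between sites and all C is not a like measure.

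The CDS share rose with coverage in both sets of sites. At 20 to 49 reads the CDS held 58.7% (56.7 to 60.8%) of MII-alone sites and 59.9% (57.9 to 61.8%) of shared sites, and at 200 reads or more 78.3% (75.3 to 81.1%) and 76.5% (75.3 to 77.6%). Within each of the 4 coverage classes the intervals overlapped, and at 200 reads or more the share of MII-alone sites was the higher value. At matched level the CDS share of MII-alone sites was lower in all 4 classes, with intervals apart, from 67.8% against 73.3% at levels of 10% to 15% to 55.4% (50.2 to 60.5%) against 67.3% (66.1 to 68.5%) at 30% or more. Within each level class the shared sites were the more deeply read, with a median of 186 reads against 87 in the first class and 112 against 25 in the last. Codon positions were alike, with 37.2%, 27.8% and 35.1% of CDS MII-alone sites at codon positions 1, 2 and 3 and 37.8%, 26.6% and 35.6% of shared ones. The first base of CAG, a glutamine codon, held 526 of these sites (13.8%), and the first base of CGG, an arginine codon, 313 (8.24%). Along the CDS the sites were spread evenly, with 33.5%, 32.2% and 34.2% in its first, middle and last parts of equal length.

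At sites listed in both oocytes, median levels were higher in the MII oocyte than in the GV oocyte, in transcripts with and without MII-alone sites. The median difference of MII minus GV oocyte level was 4.52 percentage points (4.31 to 4.76, n = 5571) in genes without an MII-alone site, and 5.42 points (4.98 to 5.80, n = 2060) in genes with 3 or more. Genes with 1 and with 2 such sites had medians of 5.19 (4.87 to 5.43) and 4.91 (4.49 to 5.33). The order of these medians did not follow the number of sites throughout, and the interval for 2 sites overlapped that for none. The median ratio of MII to GV oocyte coverage at these sites was 0.875 in genes without and 0.848 in genes with 3 or more.

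The unconverted background was also higher in the MII oocyte than in the GV oocyte. The rate of unconverted C of a gene, recovered from the deposited p-values, had a median of 0.382% in the MII oocyte and 0.264% in the GV oocyte over 5359 genes listed in both. It was higher in the MII oocyte in 86.5% of them, and in 93.7% of 490 genes with 3 or more MII-alone sites. In the MII oocyte its median was 0.400% (0.376 to 0.418%) in genes with 3 or more such sites and 0.369% (0.360 to 0.378%) in genes without one. Levels of MII-alone sites exceeded the background of their gene by a median of 38.7-fold. The excess was at least 3.60-fold at every site for which the rate could be recovered. To be listed, a site had to pass a minimum level and a binomial test against this same rate. An excess at every site is therefore fixed by the listing rule, and no such fold is given for shared sites. The part of this background in the number of MII-alone sites was not tested.

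Among gene lists, the genes of the oocyte itself held the smallest share of MII-alone sites. In oocyte-specific and maternal-effect genes, 13 of 131 MII oocyte sites were listed in that stage alone (9.92%, 5.89 to 16.2%), against 28.4% over all sites. These genes were deeply read, with a median of 737 reads per site against 107 over all sites. At 200 reads or more the share was 2.97% (3 sites, 1.02 to 8.37%), against 12.4% over all sites of that coverage. Below 200 reads it was 10 of 30 (33.3%, 19.2 to 51.2%), against 35.4%. The interval of the list lay below the overall value in the deeply read class and held it in the other. The deeply read class has no upper limit, and over all genes its MII-alone and shared sites had medians of 317 and 388 reads. The list was thus not matched for depth within it, and whether depth accounts for the lower share was not tested.

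Of the 13, 6 lay in Dnmt3a, the DNA methyltransferase that sets the maternal methylation pattern, with levels from 10.0% to 21.7% at 23 to 849 reads. The site with the highest level at 50 reads or more was in the CDS of Dicer1, the small-RNA endonuclease, at 16.8% (11.2 to 24.5%) of 119 reads. The deepest was in Mos, the kinase that holds MII arrest, with 186 unconverted reads of 1699 (10.9%). Mos, named here after its values were seen, was without a site in the GV oocyte, had 1 other in the embryo, and none besides in the MII oocyte. No MII-alone site was found in the 12 oocyte markers examined, 10 of which had sites in the MII oocyte.

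In genes of meiotic maturation and cell-cycle control, 30 of 134 sites (22.4%, 16.2 to 30.2%) were MII-alone sites, 5 of them in Espl1, the separase that releases sister chromatids, with levels from 10.1% to 14.5% at 199 to 434 reads. The highest level at 50 reads or more was in the CDS of Cdk2, a cyclin-dependent kinase, at 17.9% (12.5 to 25%) of 145 reads. Genes of translational control and mRNA decay held 47 of 192 (24.5%, 18.9 to 31.0%). Eif4enif1, a transporter and repressor of eIF4E, had 4 of its 5 sites in this group, with levels from 10.1% to 16.7% at 30 to 1381 reads. Patl1, which acts in decapping, reached 21.7% (13.1 to 33.6%) of 60 reads in the 3′ UTR. Both list shares had intervals that held the overall share.

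Genes of the RNA methylation machinery held 18 of 72 (25%, 16.4 to 36.1%), among them Nsun3 above and 5 of 10 sites of Rbm15b, a component of the m6A writer complex. Chromatin modifiers and remodellers held 105 of 424 (24.8%, 20.9 to 29.1%), with the highest level at 50 reads or more in Bptf, a subunit of the NURF remodeller, at 25.8% (17.9 to 35.8%) of 89 reads. Spindle, actin and centrosome genes held 74 of 274 (27.0%, 22.1 to 32.6%), led by Kif1b, a kinesin, at 28.0% (19.9 to 37.8%) of 93 reads. Adhesion and extracellular matrix genes held 37 of 143 (25.9%, 19.4 to 33.6%), with Lama5 at 20.0% of 65 reads. Wnt, Notch and TGF-beta signalling genes held 56 of 183 (30.6%, 24.4 to 37.6%), with a 3′ UTR site of Smad2 at 25% (16.2 to 36.4%) of 68 reads. All of these shares lay near the 28.4% of the whole list.

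Ubiquitin ligases and deubiquitinases had the highest share of the larger lists, 109 of 324 (33.6%, 28.7 to 39.0%). Their sites had a median of 106 reads, close to that of all sites. Rnf213 held 7 of 12, Ubr4 7 of 15, Usp54 6 of 11, Hectd4 6 of 18 and Herc2 6 of 16. The highest level at 50 reads or more was in the CDS of Rnf31, the catalytic subunit of the linear ubiquitin ligase, at 32.9% (23.0 to 44.5%) of 70 reads. Below 200 reads, where most of its sites lay, the list held 89 of 235 (37.9%, 31.9 to 44.2%), an interval that held the 35.4% over all sites of that coverage. At 200 reads or more it held 20 of 89 (22.5%, 15 to 32.2%), an interval that lay above the 12.4% over all sites of that coverage. The list was not matched for depth within this class, and the difference was not tested.

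**Figure D5:**
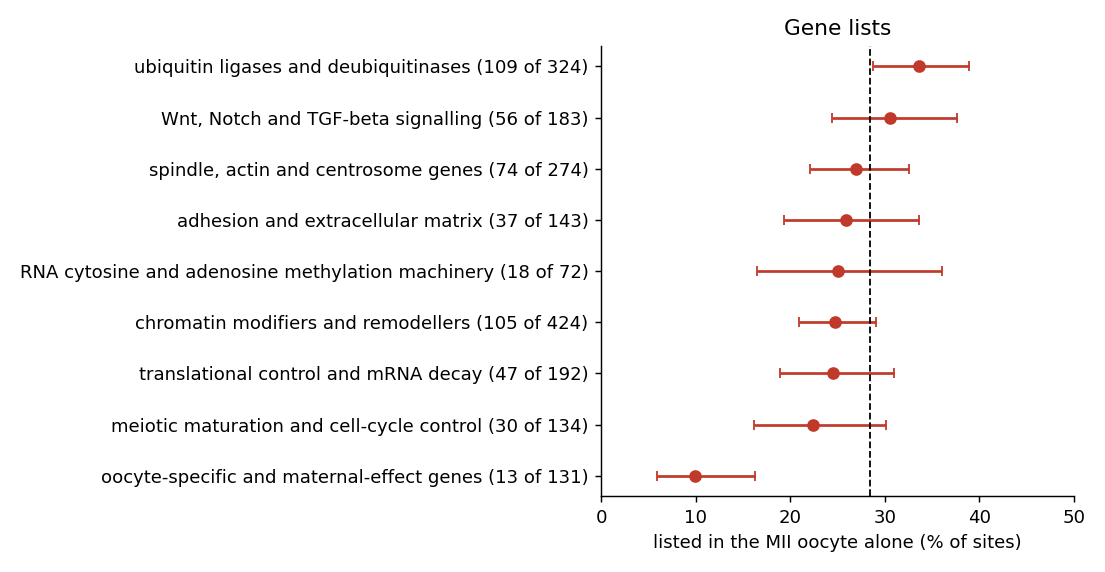
Share of MII oocyte sites listed in that stage alone, in percent, for 9 gene lists with at least 10 sites, with 95% Wilson intervals, the counts in parentheses and a dashed line at the overall share of 28.4%. The oocyte-specific and maternal-effect genes lie at 9.92%, and the ubiquitin genes, at 33.6%, are the only other list whose interval leaves out the line. The latter does so by a small margin, and the intervals count sites of the same gene as independent.

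A pair of follicle cell markers had MII-alone sites. Amh, a hormone of granulosa cells, had a CDS site with 13 unconverted reads of 96 (13.5%, 8.1 to 21.8%). Cyp19a1, the aromatase of oestrogen synthesis, had a CDS site with 5 unconverted reads of 49 (10.2%). Of the 16 follicle markers examined, these 2 had sites in the MII oocyte, and none had a site in the GV oocyte or the 1-cell embryo. In a wider list of 28 follicle markers that includes these 16, the same 2 had sites in the MII oocyte, while Nr5a2, a nuclear receptor, had 1 site in the GV oocyte, and Nr5a2 and Star, a mitochondrial cholesterol transporter, had 8 in the 1-cell embryo. The 15 MII oocyte sites of the oocyte markers had a median of 4264 reads. The part of follicle cell RNA in other MII-alone sites was not tested.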

How the data were processed

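RNA bisulfite sequencing lists of 3 mouse stages were used, 1 library each. As the labels and methods of the study describe, the authors trimmed reads with cutadapt and Trimmomatic, aligned them to the converted GRCm38 genome with HISAT2 and to the converted transcriptome with Bowtie2, and kept sites with 20 reads, a level of 0.1, 5 unconverted reads, a signal ratio of 0.9 and a p-value under 0.001. The authors deposited coverage as the raw count of C and T reads, and the m5C level as a fraction, given here in percent. Each deposited p-value is that of a binomial test in which the unconverted rate of the gene is the null, and that rate was recovered from it, a step tested on simulated data. The labels name polyadenylated RNA, whereas the methods name RNA depleted of rRNA, and the methods give another dose of hCG for MII oocytes than the labels. The deposited embryo list, used here, differs in coverage and level from the one in the supplement of the study, and which sites count as MII-alone depends on it. Called sites alone were listed, so depth over uncalled C is unknown.

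Lists were matched by exact position and strand. Unconverted reads were level times coverage, whole to within 2.9e-05. Genes, regions and exons were taken from GENCODE release M21 on GRCm38, in the order CDS, 5′ UTR, 3′ UTR and other exon. Windows of 101 nt were folded with RNAfold 2.7.2 at 37 °C. The genome was read with samtools 1.23.1 and pysam 0.24.0, and scipy 1.17.1, pandas 2.3.3 and numpy 2.4.6 were run under Python 3.11.15, with matplotlib 3.10.9 for plots. Sites and gene lists were chosen with earlier results of these data known. Named items were the 10 genes with most MII-alone sites (ties by symbol), the 10 sites with the highest level and the 5 Type II sites with the highest level at 100 reads or more, the 5 deepest sites, the 5 genes with most sites among those listed in the MII oocyte alone (ties by summed coverage, 1 of which is not reported here), the site with the highest level at 50 reads or more of each gene list, and the 5 furthest above the GV oocyte ceiling. Windows that crossed an exon boundary or lay on chromosome 18 were not printed. Alternatives were other minimums of coverage and level, a position tolerance of 2 nt, the motif CUCCA alone, gauge windows of 10 and 50 nt, and deeply read shared sites.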

Additional observations from a re-analysis of the deposited data

How the results depend on the processing

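No paired analysis was possible because each stage has 1 library and no test was made. The number of MII-alone sites was 3584 at 50 reads or more, 1803 at 100 reads or more and 1256 at a level of 20% or more. In that order of settings, the median level was 12.4%, 12.2% and 25%, and the median coverage 100, 179 and 30 reads. Sites in genes listed at every stage made up 73.6%, 80.9% and 49.0%, in both oocytes only 12.3%, 8.32% and 23.6%, and in the MII oocyte alone 6.11%, 3.27% and 18.3%. The CDS held 69.4%, 73.4% and 58.3%, the 5′ UTR 10.7%, 9.37% and 14.8%, and the 3′ UTR 17.9%, 16.1% and 22.4%. These settings keep deeper or more methylated sites by construction. At 100 reads or more, genes of the MII oocyte and 1-cell embryo only held 7.49%, Type II sites made up 3.27%, and the first and second codon positions 39.0% and 25.8%. At a level of 20% or more the mean number of G after Type I sites was 2.25. Gauge windows of 10 and 50 nt gave 187 and 588 sites for the GV oocyte, of which 57 and 161 stood above the ceiling, and 72 and 238 for the 1-cell embryo, of which 18 and 60 did. At shared sites with 100 reads in both oocytes the median rise was 4.81, 5.45 and 5.34 percentage points in genes with 0, 1 and 2 MII-alone sites. Differences from shared sites were not recomputed under these settings. Leaving out sites with a site of another list within 2 nt (5656 remained) and the motif CUCCA alone (3.51%) moved no value beyond its counting interval. Depth limits most statements: sites under 50 reads have wide intervals.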

Other observations

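Of 48 genes of meiotic maturation and cell-cycle control with a site in the MII oocyte, Wee1, Arpp19, Cdc25b and Mos had an MII-alone site as their only one. They were picked out after their values were seen. Over the whole MII oocyte list, every site was an MII-alone site in 1008 of 6736 genes, so this trait is not particular to these regulators. Wee1, an inhibitory kinase of CDK1, had a 5′ UTR site with 8 unconverted reads of 60 (13.3%). Arpp19, an inhibitor of the phosphatase PP2A, had a CDS site with 15 of 147 (10.2%). Neither gene was listed at another stage. Cdc25b, a phosphatase that activates CDK1, had a CDS site with 21 of 208 (10.1%) and 2 other sites in the 1-cell embryo. All of these levels lay close to the limit of the lists.

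Among the maternal-effect genes, Khdc3, of the subcortical maternal complex, had an MII-alone CDS site with 130 unconverted reads of 967 (13.4%). It had 4 sites in the GV oocyte, 4 others in the MII oocyte, and the embryo had 11. In the RNA modification genes, Rbm15b held MII-alone sites from 10.3% to 25.9% at 27 to 369 reads, and Virma, another component of the m6A writer complex, held 2 of its 5 sites, at 10.2% and 11.5% of 254 to 278 reads.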
